A study of Caenorhabditis elegans with 16 samples.

Results

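The 16 libraries of this series were compared by replicate number: the 8 libraries numbered 3 and 4 were set against the 8 numbered 1 and 2, with genotype as a block. All 16 of the 16 libraries entered, and each of the 4 genotypes gave 2 libraries to either side. The libraries hold mRNA of whole *C. elegans* grown on OP50 bacteria at 20 °C and frozen as young adults on day 1 of adulthood. The genotypes were *hsf-1* OE; *ubql-1(tm1574)* (called the double strain here), *hsf-1* OE, *ubql-1(tm1574)* and wildtype (N2). *hsf-1* OE carries an integrated transgene in which the broadly active *sur-5* promoter drives the heat shock factor *hsf-1*, beside a *myo-2p::tdTomato* marker of the pharynx, *ubql-1(tm1574)* is a deletion in the ubiquilin gene *ubql-1*, and the double strain carries both. No treatment was given to any group, and each strain is a single integrated line or allele. The labels call the samples replicates and do not say what a shared number stands for, so a day, a plate or an RNA preparation cannot be told apart.

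A synchronised worm culture changes quickly around the last moult. In the last larval stage the hypodermis, the skin that makes the cuticle, secretes collagens, cuticlins and apical matrix proteins in a set order and then falls silent for most of them. The hermaphrodite germline makes sperm first and oocytes from then on, and the adult intestine begins to make yolk proteins, the vitellogenins, which oocytes take up. Cuticle, yolk, sperm and oocyte transcripts of whole animals therefore change over hours at this age. In whole animals fewer cells of a type and less RNA per cell cannot be told apart, and this holds for each result given here.

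Total counts per library ran from 18202151 to 30524762 in replicates 3 and 4 and from 20486225 to 26292760 in replicates 1 and 2. The transcripts that define the genotypes did not separate the numbers, with a log2 fold change of 0.06 for *hsf-1* (adjusted p = 0.536) and of -0.07 for *ubql-1* (adjusted p = 0.270). *ubql-1* had 1265 to 1945 normalized counts in the 8 libraries with the deletion, against 3567 to 4229 in the other 8. *hsf-1* had 1663 to 3123 in the 8 libraries labelled with the transgene, against 2259 to 2618 in the other 8, so its transcript did not set the libraries labelled *hsf-1* OE apart. Of the tissue markers, muscle *unc-54* (log2 fold change 0.00), intestine *ges-1* (0.06) and germline *pgl-1* (-0.18) were present in every library at 522 or more normalized counts. Male neuron genes *lov-1*, *pkd-2* and *cwp-1* never passed 8.19 normalized counts. Other markers differed more between the sides. Hypodermis *dpy-7* had 1.39 and *col-10* 1.01, though *col-19* had -0.07. Neuronal *rab-3* had 0.39, muscle *myo-2* 0.33, sperm *gsp-3* 0.41 and oocyte *oma-1* -0.32. Wildtype replicate 2 lay apart at the low end of the first principal component and *hsf-1* OE replicate 4 at its high end, and counts were therefore also made without both. Normalized counts are given throughout, that is, counts scaled by TMM library sizes to the average of the 16 libraries.

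Of 16170 genes tested, 582 (3.60%) passed both thresholds, an absolute log2 fold change over 1 and an adjusted p under 0.05 in the quasi-likelihood F test of edgeR (Benjamini-Hochberg), which gave each adjusted p here. The change was mostly one way: 529 genes (3.27%) were higher in replicates 3 and 4 and 53 (0.328%) were lower. Among the 529, 432 had the same direction in all 4 genotypes, as did 50 of the 53 and 7373 of all 16170 genes tested. The genes were called on the same libraries, so part of this agreement is built in. The higher genes were weakly expressed, with a median of 39.5 normalized counts against 246 over all genes tested, and 155 of them reached 100. By the adjusted p alone, 2393 genes (14.8%) were higher and 2817 (17.4%) were lower, so the lower genes outnumbered the higher ones once the fold threshold was dropped. Without wildtype replicate 2 and *hsf-1* OE replicate 4, 420 genes passed, 386 of them higher.

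**Figure D1:**
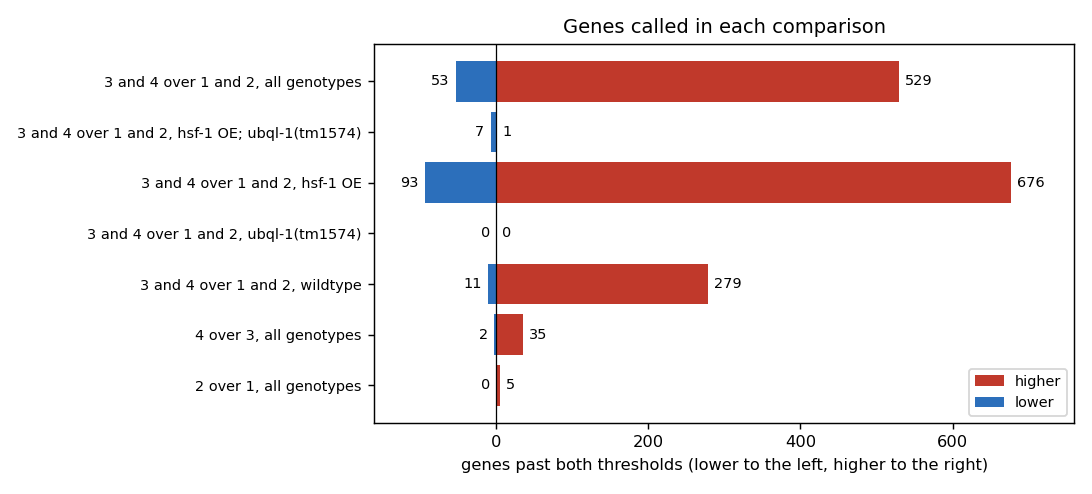
Genes past both thresholds in each comparison, counted on the horizontal axis, with lower genes to the left in blue and higher genes to the right in red. Replicates 3 and 4 against 1 and 2 over all genotypes gave 529 higher and 53 lower genes, while number 4 against 3 gave 35 and 2, and number 2 against 1 gave 5 and 0.

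Fewer genes passed between the 2 numbers within a pair, where 4 libraries stood against 4 and not 8 against 8. Counts from comparisons of different size do not measure how close the libraries were. Replicate 4 differed from replicate 3 in 37 genes (0.229%), and replicate 2 from replicate 1 in 5 (0.0309%), in a model of genotype and 4 number terms. Within single genotypes, with 2 libraries on each side and a shared estimate of the spread, 8 genes passed in the double strain (0.0495%), 769 in *hsf-1* OE (4.76%), 0 in *ubql-1(tm1574)* (0.00%) and 290 in wildtype (1.79%). In *ubql-1(tm1574)*, 1698 genes had an unadjusted p under 0.05. These unequal counts do not show that the genotypes differed. The test of that difference, a pair by genotype term in edgeR, found 0 genes at an adjusted p under 0.05 (1530 at an unadjusted p under 0.05), and the same test in DESeq2 found 140, 10 of them among the 151 tested cuticle collagens.

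In a principal component analysis the first component held 65.4% of the variance and also separated the genotypes. In every genotype both libraries of replicates 3 and 4 lay higher on it than both of replicates 1 and 2: 72.6 and 75.7 against 36.5 and 39.9 in the double strain, 80.2 and 87.2 against 29.6 and 49.8 in *hsf-1* OE, -17.8 and -24.9 against -44.1 and -52.9 in *ubql-1(tm1574)*, and -65.9 and -60.4 against -88.2 and -117 in wildtype. The strains with the *hsf-1* transgene also lay at its high end. For the median gene, genotype held 67.5% of the variance, the pair of numbers 6.73%, the pair by genotype term 5.37% and the number within a pair 3.26%. Of the spread left within genotypes, a median of 26.1% lay between the pairs.

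**Figure D2:**
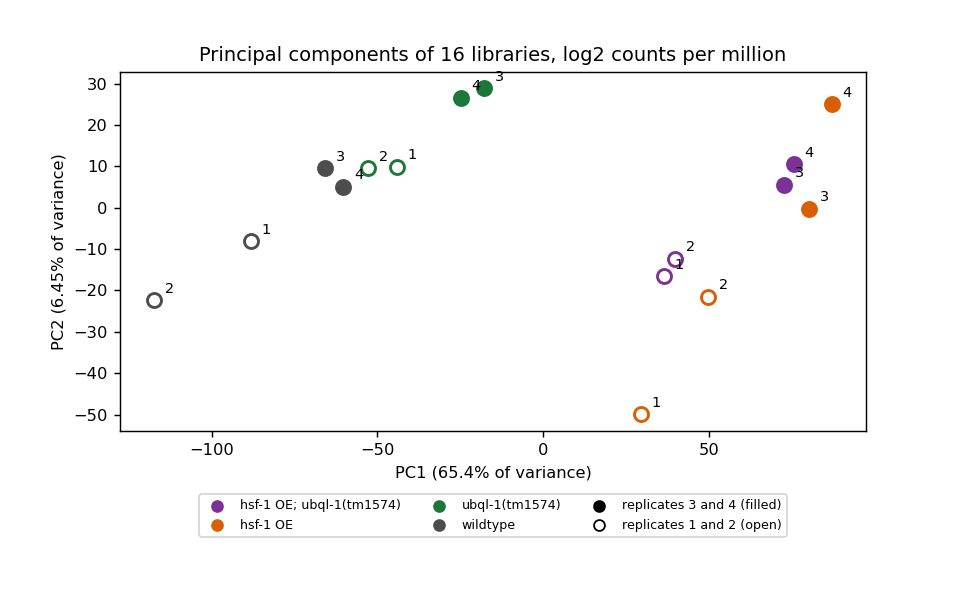
First 2 principal components of the 16 libraries, with PC1 (65.4% of the variance) on the horizontal and PC2 (6.45%) on the vertical axis, colours for genotypes, filled points for replicates 3 and 4, open points for 1 and 2, and the replicate number beside each point. Within every colour the filled points lie to the right of the open ones.

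Libraries with the same number deviated together. Over 11937 genes, the deviations from the genotype mean correlated between libraries of the same number in different genotypes with a median of 0.466 (lowest 0.120, 24 comparisons), between the 2 numbers of a pair with 0.318, and between numbers of different pairs with -0.393. Deviations from a genotype's mean cancel out within that genotype, so positive values within pairs force a negative one between pairs. The value of -0.393 is therefore not a separate result. These are correlations across genes, which are not independent replicates. Since same-numbered libraries moved together, p-values over libraries measure the spread between these 16 samples and not between independent collections. If the 4 numbers are taken as the units, 2 against 2, an exact permutation test cannot give a p under 0.333.

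Cuticle collagens, the main structural proteins of the worm's outer coat, rose in number. Of the 175 counted, 151 were tested, and 79 were higher and 0 lower by both thresholds, where 3.27% and 0.328% of all genes tested were. Their median log2 fold change was 1.03, against 0.00 over all genes tested. Without wildtype replicate 2 and *hsf-1* OE replicate 4, 67 were higher. In 62 of the 151, replicates 3 and 4 lay above replicates 1 and 2 without overlap in all 4 genotypes, which 3.88% of all genes tested did. Of the 24 collagens not tested, none had enough counts for the filter, and the counts here describe tested members only.

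*col-77*, a collagen on chromosome II, had 4606 and 5527 normalized counts in double strain replicates 3 and 4, against 2016 and 1635 in replicates 1 and 2. In *hsf-1* OE it had 5677 and 8865 against 529 and 1924, in *ubql-1(tm1574)* 1374 and 1242 against 475 and 621, and in wildtype 774 and 324 against 205 and 18.0. No genotype overlapped, and the change came to 1.87 on the log2 scale (SE 0.32, adjusted p = 0.00188). *col-175*, on chromosome X, ran from 71.5 to 5258 with a median of 1490 in replicates 3 and 4, and from 0 to 955 with a median of 265 in replicates 1 and 2 (log2 fold change 1.92 ± 0.37 standard error, adjusted p = 0.00317). Wildtype replicate 2 had no *col-175* count at all. Across libraries these collagens thus varied with genotype as well as with number, and the ranges of the pairs overlapped until genotypes were held apart.

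Collagens that shape the body, named for the dumpy, roller, squat, long or blistered worms that their mutants give, showed the same pattern. Of 20 tested, 16 were higher and 0 lower, where 3.27% and 0.328% of all genes tested were. Their median log2 fold change was 1.52. *rol-6*, a collagen whose mutants roll, had 836 and 775 normalized counts in double strain replicates 3 and 4 against 255 and 292 in 1 and 2, 515 and 1971 against 82.6 and 284 in *hsf-1* OE, 186 and 133 against 99.0 and 27.2 in *ubql-1(tm1574)*, and 12.1 and 9.17 against 10.9 and 1.2 in wildtype. The wildtype libraries overlapped and the other genotypes did not. The fold change came to 1.87 on the log2 scale (SE 0.37, adjusted p = 0.00381). *sqt-2* (1.79), *dpy-5* (1.78), *lon-3* (1.74) and *sqt-1* (1.71) were close to it. Of the 4 that did not pass, *dpy-9* and *dpy-10* had log2 fold changes of 0.89 and 0.60, *dpy-17* of 0.17 and *dpy-14* of -0.39. By leaving out a whole replicate number the count fell to 10, without replicate 2 and also without replicate 3.

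The 3 collagens listed as adult ones divided. *col-7* and *col-62*, neighbours on chromosome I, were higher without overlap in any genotype. *col-62* had 1315 to 9051 normalized counts with a median of 3348 in replicates 3 and 4, and 296 to 4084 with a median of 1611 in replicates 1 and 2 (log2 fold change 1.27, standard error 0.15, adjusted p = 0.000247, exact permutation p = 0.00154, two-sided, the smallest that rearranging the pair labels within genotypes can give). *col-7* stood at a log2 fold change of 1.38 (SE 0.22). *col-19*, the collagen used as a mark of the adult hypodermis, did not pass, and its sign turned without replicate 4 and with the reference gene scaling: it had 39905 to 53345 normalized counts in replicates 3 and 4 and 45431 to 58059 in replicates 1 and 2 (log2 fold change -0.07, standard error 0.06, adjusted p = 0.427). Without overlap it was lower in the double strain and in *hsf-1* OE and higher in *ubql-1(tm1574)*, and the sides overlapped in wildtype.

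By the adjusted p alone 10 of the 151 collagens were lower, fewer than the 17.4% of all genes tested that were. *col-101*, *col-143* and *col-98*, chosen after their values were seen like *col-135*, were among them, with log2 fold changes of -0.88, -0.74 and -0.65. *col-101* had a median of 14521 normalized counts in replicates 3 and 4, against 23150 in replicates 1 and 2. *col-135* had 406 against 676, and no genotype overlapped (log2 fold change -0.70, adjusted p = 0.000508). The share of all counts held by the 175 collagens moved little by comparison, from 4.32% to 6.63% over the libraries of replicates 3 and 4 and from 3.90% to 6.47% over those of 1 and 2.

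**Figure D3:**
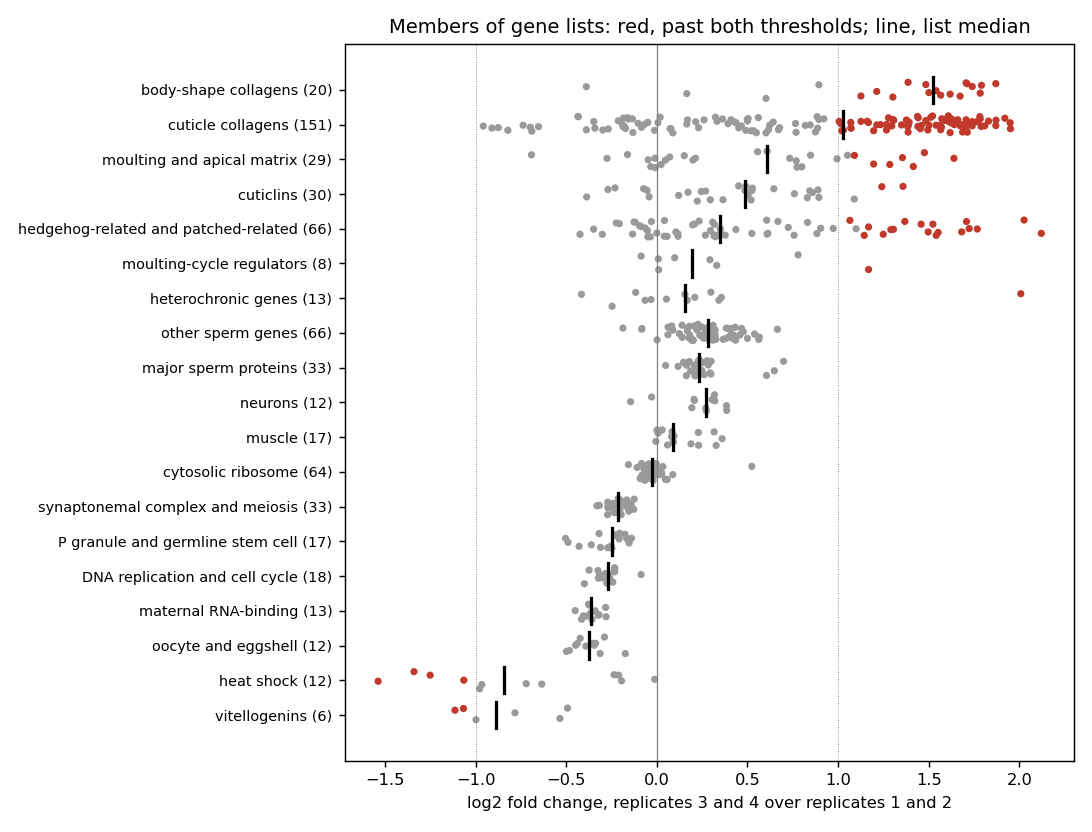
Log2 fold change of replicates 3 and 4 over 1 and 2 for each tested member of 19 gene lists, number tested in brackets, with members past both thresholds in red and the list median as a black line. Collagens lie to the right (medians 1.52 and 1.03), and oocyte, heat shock and vitellogenin genes to the left (medians -0.37, -0.84 and -0.89).

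Genes of moulting and of the apical extracellular matrix, the coat under which a new cuticle forms, had 0.61 as their median log2 fold change. Of 29 tested, 7 were higher and 0 lower, where 3.27% and 0.328% of all genes tested were. *mlt-8* had 44.5 to 1385 normalized counts with a median of 419 in replicates 3 and 4, against 15.6 to 334 with a median of 105 in replicates 1 and 2. It did not overlap in any genotype, and the fold change came to 1.48 on the log2 scale (SE 0.27, adjusted p = 0.00238). *mlt-9* (1.42) and the hedgehog-related *qua-1* (1.36) passed as well, though *qua-1* had -0.10 in wildtype. This list rested on few libraries: without *hsf-1* OE replicate 4 alone 3 members passed, without *hsf-1* OE replicate 1 alone 4, and without wildtype replicate 2 and *hsf-1* OE replicate 4 only 2. Its median was 0.44 in the double strain, 0.93 in *hsf-1* OE, 0.41 in *ubql-1(tm1574)* and -0.03 in wildtype, a difference that was not tested for the list.

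Hedgehog-related and patched-related proteins, which worms use largely in cuticle formation and moulting, had a median log2 fold change of 0.35. Of 66 tested members, 18 were higher and 0 lower, where 3.27% and 0.328% of all genes tested were. Without the 2 libraries named above, 12 were higher. *grl-16*, a ground-like protein gene, had 2868 and 3596 normalized counts against 1414 and 1069 in the double strain, 3336 and 5692 against 295 and 1481 in *hsf-1* OE, 874 and 857 against 317 and 490 in *ubql-1(tm1574)*, and 523 and 210 against 156 and 2.40 in wildtype. No genotype overlapped (log2 fold change 1.72, standard error 0.37, adjusted p = 0.00524). *grl-5* had the largest change of the list (2.12, standard error 0.42), with wildtype libraries that overlapped at 10.8 counts or fewer. Cuticlins, insoluble proteins of the cuticle, had 2 of 30 higher, *cut-2* (1.36) and *cutl-28* (1.24), where 3.27% of all genes tested were. Their median was 0.49, and there were 0 calls without the 2 libraries.

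Regulators of the moulting cycle and of developmental timing moved less. *lin-42*, the worm relative of the clock gene period, had 121 to 1723 normalized counts with a median of 443 in replicates 3 and 4, against 109 to 448 with a median of 172 in replicates 1 and 2. The fold change came to 1.17 on the log2 scale (SE 0.31, adjusted p = 0.0138). It was 2.57 in *hsf-1* OE, 1.16 in the double strain, 0.73 in *ubql-1(tm1574)* and -0.02 in wildtype. The edgeR test of a difference between genotypes gave an adjusted p of 0.416. *lin-42* no longer passed the fold threshold without *hsf-1* OE replicate 4 (0.86), *hsf-1* OE replicate 1 (0.95) or all libraries numbered 4 (0.996). Without those numbered 2 its adjusted p was 0.0820. The other 7 moulting-cycle regulators did not pass. *bed-3* had a log2 fold change of 0.78 (adjusted p = 0.0883), *nhr-25* of 0.33, *myrf-1* of 0.29, *grh-1* of 0.10, *myrf-2* and *blmp-1* of 0.01 each, and *nhr-23*, a nuclear receptor needed for moulting, of -0.09.

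Of 13 heterochronic genes, which set the order of larval stages, 1 passed both thresholds, where 3.60% of all genes tested did. The locus of the microRNA *let-7* had 0 to 67.1 normalized counts in replicates 3 and 4 and 0 to 16 in replicates 1 and 2 (log2 fold change 2.01, standard error 0.59, adjusted p = 0.0202), and lost the call without any 1 of *hsf-1* OE replicates 1, 2 or 4 (adjusted p = 0.0560, 0.0559 and 0.0525). *lin-29*, the transcription factor that drives the switch to the adult skin, was higher by the adjusted p alone (0.34, adjusted p = 0.0190), as were *dre-1* (0.36) and the RNA *lep-5* (0.30). *lin-41*, a target of *let-7* that is also abundant in oocytes, was lower by the adjusted p alone, at 2505 to 8871 normalized counts in replicates 3 and 4 and 4082 to 10952 in 1 and 2 (log2 fold change -0.42, standard error 0.08, adjusted p = 0.00361). *lin-46*, *mab-10*, *lin-14*, *apl-1*, *daf-12*, *lin-28*, *lep-2* and *hbl-1* did not pass, with log2 fold changes from -0.25 to 0.21.

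Vitellogenins, the yolk proteins that the adult intestine makes for oocytes, were lower. All 6 genes had an adjusted p under 0.05, and 2 passed the fold threshold too. Of all genes tested, 17.4% were lower by the adjusted p alone and 0.328% by both thresholds. None of the 6 overlapped in any genotype, where 5.63% of all genes tested were lower without overlap. *vit-1* had 64418 and 55640 normalized counts against 115874 and 145632 in the double strain, 51600 and 33831 against 153711 and 124823 in *hsf-1* OE, 127494 and 111734 against 203248 and 195239 in *ubql-1(tm1574)*, and 125498 and 101319 against 178229 and 193563 in wildtype. The fold change came to -1.07 on the log2 scale (SE 0.13, adjusted p = 0.000285). *vit-3* had -1.11, *vit-4* lay just under the fold threshold (adjusted p = 0.000497), *vit-5* had -0.78, *vit-6* -0.54 and *vit-2* -0.49. *vit-1* and *vit-3* lay just past the fold threshold and no longer passed it without *hsf-1* OE replicate 4 (-0.96 and -0.99), and *vit-1* also not without *hsf-1* OE replicate 1 (-0.99). *vit-3*, *vit-4* and *vit-5* are near-identical copies whose reads may be shared, so their values are not independent. As a share of all counts, the 6 genes held 3.33% to 5.54% in replicates 3 and 4 and 5.86% to 7.23% in replicates 1 and 2, and here the 2 sides did not overlap even across genotypes.

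Oocyte genes fell by less and all together. Of 12 genes of the oocyte surface and eggshell, 12 were lower by the adjusted p alone, where 17.4% of all genes tested were, and 0 passed the fold threshold. Their log2 fold changes ran from -0.50 to -0.17 with a median of -0.37. *perm-2*, an eggshell permeability barrier protein, had 9186 and 8795 normalized counts against 13070 and 13868 in the double strain, 10586 and 8435 against 17043 and 13858 in *hsf-1* OE, 13109 and 13238 against 16338 and 16306 in *ubql-1(tm1574)*, and 14806 and 13148 against 17046 and 19958 in wildtype (log2 fold change -0.50, standard error 0.07, adjusted p = 0.000533). *rme-2*, the yolk receptor of oocytes, had 7574 to 22664 in replicates 3 and 4 and 10101 to 28945 in replicates 1 and 2 (log2 fold change -0.34, adjusted p = 0.00822). Of 13 maternal RNA-binding proteins, 13 were lower by the adjusted p alone, with *oma-2* at -0.45, *puf-5* at -0.41 and *spn-4* at -0.38. The median was -0.53 in the double strain and -0.66 in *hsf-1* OE, but -0.13 in *ubql-1(tm1574)* and in wildtype alike. The test of a difference between genotypes called no member of either list in edgeR, where it called 0 genes at all, or in DESeq2, where it called 140. Without replicate 4 the counts were 9 of the 12 oocyte and 7 of the 13 maternal genes, and without replicate 3 they were 9 and 8.

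Other germline lists lay between these and the other genes. By the adjusted p alone 17 of 18 DNA replication genes were lower, where 17.4% of all genes tested were. So were 15 of 17 P granule and germline stem cell genes and 22 of 33 synaptonemal complex and meiosis genes. None of them passed the fold threshold, and in this order the median log2 fold changes were -0.27, -0.25 and -0.21. With library sizes set by *cdc-42*, *pmp-3* and *rpb-2*, reference genes in the study's quantitative PCR, the median of all genes moved to 0.11 and these medians to -0.16, -0.14 and -0.10. *rpb-2* itself was lower by the adjusted p alone (log2 fold change -0.16, adjusted p = 0.0286), and *pmp-3* and *cdc-42* had -0.13 and -0.06. *htp-2*, at the median of the meiosis list, had log2 fold changes of -0.29 in the double strain and -0.42 in *hsf-1* OE. In *ubql-1(tm1574)* and wildtype it had -0.095 and -0.039. The DESeq2 test of a difference between genotypes called 0 of the 33 meiosis, 0 of the 18 replication and 2 of the 17 P granule genes. That of edgeR called 0. Core histones had a median of -0.01. By the adjusted p alone 2 of 32 tested members were higher and 1 lower, where 14.8% and 17.4% of all genes tested were.

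Sperm genes did not follow the oocyte genes. Of 33 tested major sperm protein genes, small proteins that move the crawling sperm cell, 0 passed both thresholds and all 33 had a positive log2 fold change over the genotypes together, with a median of 0.23. The genotypes were not alike in sign, with 33 of 33 positive in *ubql-1(tm1574)* and in wildtype, 23 in the double strain and 4 in *hsf-1* OE, where 29 were negative. The DESeq2 test of a difference between genotypes called 5 of the 33, and that of edgeR 0. Of 66 other sperm genes, 0 passed and 17 were higher by the adjusted p alone (14.8% of all genes tested were), with a median of 0.28. The median of these 66 came to 0.79 in wildtype, 0.45 in *ubql-1(tm1574)*, 0.16 in the double strain and -0.13 in *hsf-1* OE. As a share of all counts it held 0.122% and 0.148% in wildtype replicates 3 and 4, against 0.103% and 0.0652% in replicates 1 and 2. In *hsf-1* OE replicates 3 and 4 it held 0.271% and 0.226%, and replicates 1 and 2 held the same 0.271% and 0.226%. Members of the major sperm protein family share long stretches of sequence, and their reads may be split among copies.

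**Figure D4:**
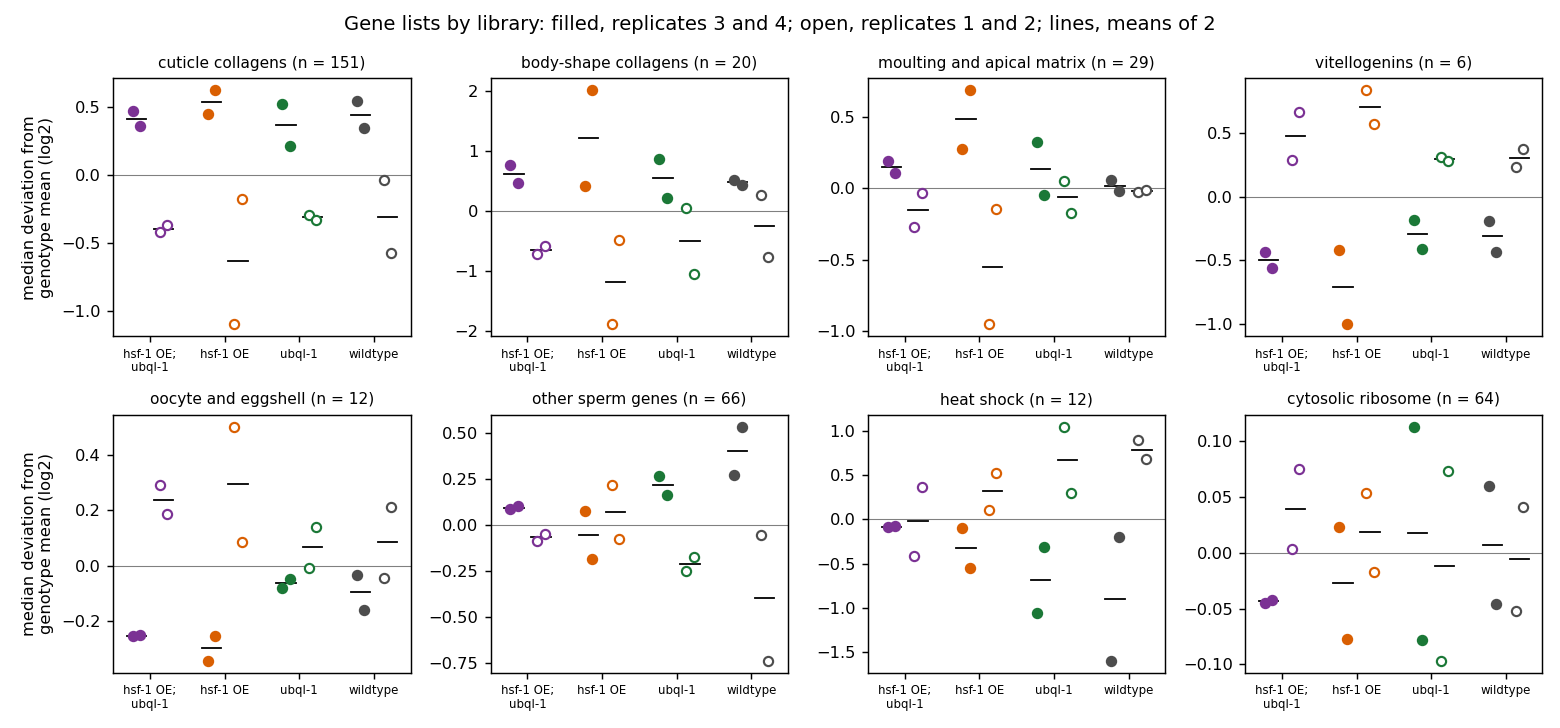
Each point is 1 library, and the vertical axis is the median over a list's tested members of the log2 deviation from the genotype's mean; filled points are replicates 3 and 4, open points 1 and 2, lines the means of 2, and ubql-1 stands for ubql-1(tm1574). Filled points lie above open ones in all genotypes for cuticle collagens and below them for vitellogenins, while the heat shock points part mainly in ubql-1(tm1574) and wildtype, and the ribosomal ones overlap.

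Heat shock genes, the best known targets of *hsf-1*, were lower by both thresholds in 4 of 12 cases and higher in 0, where 0.328% and 3.27% of all genes tested were. *hsp-16.2*, a small heat shock protein, had 374 and 347 normalized counts against 325 and 569 in the double strain, and 368 and 254 against 380 and 532 in *hsf-1* OE. In *ubql-1(tm1574)* it had 33.2 and 56.5 against 300 and 113, and in wildtype 14.8 and 75.2 against 388 and 137. The sides overlapped in the double strain only, and the change came to -1.25 on the log2 scale (SE 0.36, adjusted p = 0.0180). Its neighbour *hsp-16.41* had -1.34 and the weakly expressed *hsp-16.48* and *hsp-16.1* had -1.54 and -1.07. *hsp-16.11* had -0.97, under the fold threshold. *hsp-16.49* did not follow them, with -0.01 over the genotypes together and 2.05 in wildtype, where replicate 3 had 226 normalized counts. The median of the 12 was -1.89 in wildtype and -1.56 in *ubql-1(tm1574)*, against -0.45 in *hsf-1* OE and -0.28 in the double strain. The test of a difference between genotypes called 0 of the 12 in DESeq2, and in edgeR it called 0 genes at all. *hsp-70* did not pass (-0.98, adjusted p = 0.0548). Leaving out replicate 3 left 0 of the 4 calls and leaving out replicate 4 left 1. The *hsp-16* genes come in near-identical pairs, so that reads may be shared between copies.

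The constitutive chaperones of the same list changed less. *hsp-1*, *hsp-90* and *hsp-110* had log2 fold changes of -0.20, -0.21 and -0.24, each with an adjusted p under 0.05 and under the fold threshold.

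The 10 largest rises among genes with at least 100 normalized counts and 1 direction in all genotypes were *abu-8*, F33H12.7, *idpc-3*, *grl-5*, E01G4.6, *col-175*, F33D4.6, F30H5.3, *col-77* and *rol-6*, with log2 fold changes from 2.27 to 1.87. *abu-8*, of a family first described as activated when the unfolded protein response is blocked, had 324 and 338 normalized counts against 94.9 and 126 in the double strain, 446 and 398 against 20.7 and 86.9 in *hsf-1* OE, 121 and 35 against 28.1 and 18.9 in *ubql-1(tm1574)*, and 49.9 and 37.6 against 2.41 and 3.59 in wildtype. No genotype overlapped (standard error 0.32, adjusted p = 0.000617). E01G4.6 covered the widest range, 82.5 to 10581 in replicates 3 and 4 and 7.19 to 1442 in replicates 1 and 2 (log2 fold change 1.96, standard error 0.41).

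The 10 largest falls were *dhs-26*, *pud-3*, *asm-3*, *pud-4*, T22B7.7, *lipl-1*, Y48E1B.8, *hsp-16.41*, ZK813.2 and *hsp-16.2*, from -2.82 to -1.25. *dhs-26*, a short-chain dehydrogenase gene, had 79.5 and 38.6 normalized counts against 193 and 357 in the double strain, 33.8 and 19.5 against 631 and 244 in *hsf-1* OE, 124 and 43.1 against 587 and 535 in *ubql-1(tm1574)*, and 75.5 and 11.9 against 391 and 73.1 in wildtype. Only wildtype overlapped, and the change came to -2.82 on the log2 scale (SE 0.41, adjusted p = 0.000701). T22B7.7 had 244 to 1121 in replicates 3 and 4 and 710 to 2893 in replicates 1 and 2 (-1.95, standard error 0.29). *pud-3* and *pud-4*, neighbours on chromosome V from a family named for its protein levels in a long-lived *daf-2* mutant, had -2.22 and -2.04. *pud-3*, *pud-4*, *lipl-1* and *asm-3* lost the call without replicate 2 and without replicate 4.

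Among genes of lipid metabolism, *fat-7*, a stearoyl-CoA desaturase of the intestine, had 740 to 1588 normalized counts with a median of 1109 in replicates 3 and 4, against 1321 to 4938 with a median of 1900 in replicates 1 and 2 (log2 fold change -1.18, standard error 0.24, adjusted p = 0.00402). The lysosomal lipase *lipl-1*, which is induced by fasting, had 4.04 to 125 with a median of 45.3, against 15.7 to 333 with a median of 128 (-1.54). *acs-2*, an acyl-CoA synthetase of mitochondrial fat oxidation, was higher by the adjusted p alone, at 2407 to 5703 against 779 to 2541, without overlap in any genotype (0.90, standard error 0.11, adjusted p = 0.000285). Of the 27 fatty acid genes 2 passed both thresholds, both lower, where 3.60% of all genes tested passed, and the median of the 27 was -0.04. *fat-7* lost its fold call without wildtype replicate 1 (-0.97), which had 4938 counts, and without all libraries numbered 1 (-0.61). Without those numbered 4 its adjusted p was 0.0522. Its wildtype sides overlapped, at 1588 and 1167 against 4938 and 1321.

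**Figure D5:**
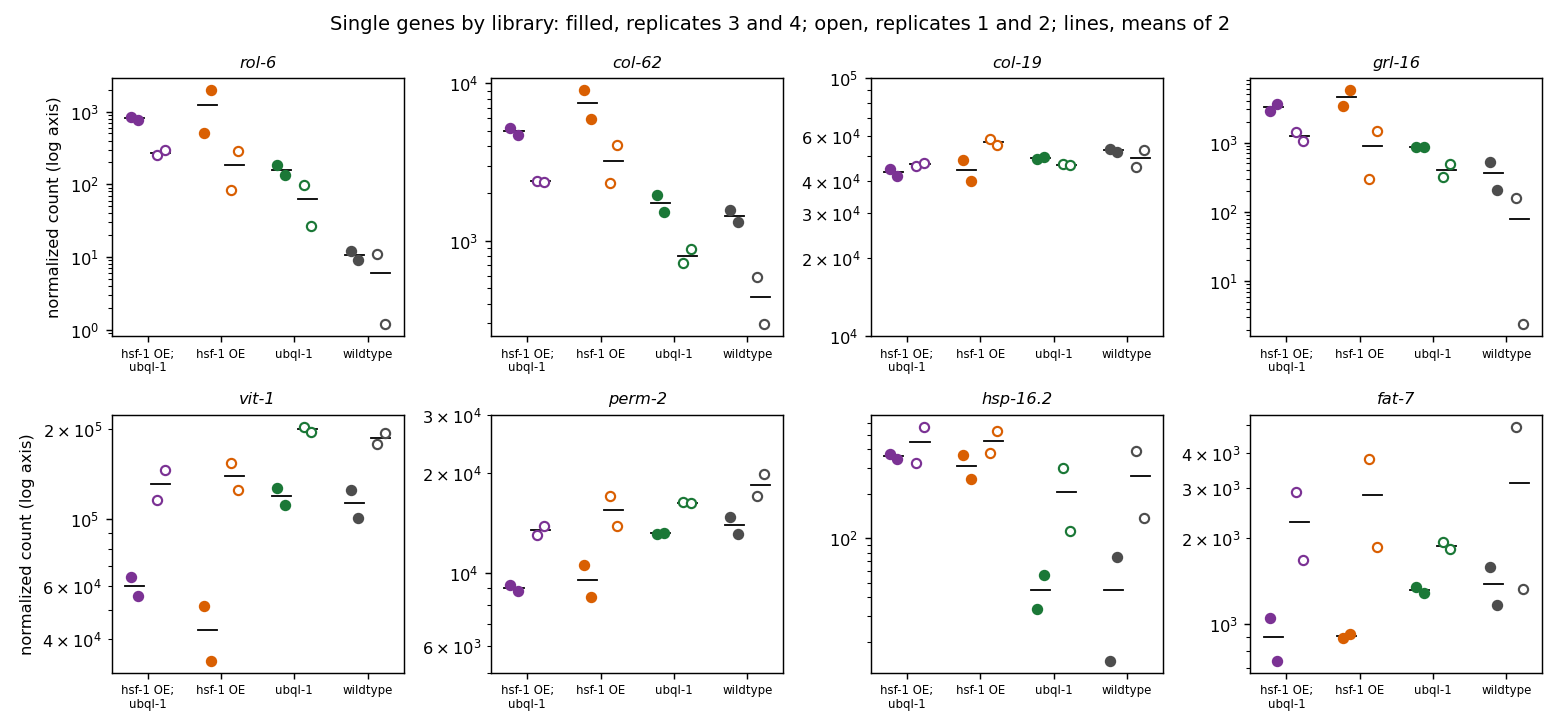
Normalized counts of 8 genes on log axes, 1 point per library, with filled points for replicates 3 and 4, open points for 1 and 2, lines for the means of 2, and ubql-1 for ubql-1(tm1574). rol-6, col-62 and grl-16 lie higher in replicates 3 and 4, and vit-1, perm-2, hsp-16.2 and fat-7 lie lower. Of these, rol-6 and fat-7 overlap in wildtype and hsp-16.2 in the double strain. col-19 stays within 39905 and 58059 throughout.

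Defence and detoxification genes gave few calls. Of 136 tested C-type lectins 5 were higher (3.68%, against 3.27% of all genes tested) and 2 lower (0.328% of all genes tested were). Of the 30 tested genes named *pals* or *irg*, 2 were higher, where 3.27% of all genes tested were. Their median log2 fold change was 0.30. *irg-2*, an immune response gene, was among the higher ones, without overlap in any genotype (1.35, standard error 0.19, adjusted p = 0.00064). *irg-4* and *irg-5* went the other way, with -0.45 and -0.84, and did not pass. Of 61 cytochrome P450 genes 2 were higher and 2 lower, where 3.27% and 0.328% of all genes tested were. *cyp-33C8* had 1.16 and *cyp-35A5* -1.17. *cyp-35A5* lost the call without wildtype replicate 2 (-0.99) or *ubql-1(tm1574)* replicate 4 (-0.96), and the count of lower P450 genes ran from 0 to 6 over the alternatives. Of 14 epidermal antimicrobial peptide genes *nlp-34* was higher (1.05), where 3.27% of all genes tested were. The count of higher members ran from 0 to 6 over the alternatives. It was 0 without any 1 of the 4 *hsf-1* OE libraries, wildtype replicate 1 or double strain replicate 4.

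Lists of other tissues gave hardly any call. The median log2 fold change was 0.09 for muscle genes, 0.27 for pan-neuronal genes, 0.06 for intraflagellar transport genes, 0.11 for the 9 intestine genes and -0.03 for cytosolic ribosomal proteins. By the adjusted p alone 8 of 12 pan-neuronal and 13 of 50 neuropeptide genes were higher, where 14.8% of all genes tested were. In muscle, neurons, cilia and ribosome 0 members passed both thresholds, and in the intestine list *ftn-1*, a ferritin gene, did (1.12). Over all genes tested 3.60% passed. *ftn-1* had 162 normalized counts in *hsf-1* OE replicate 4 against a median of 31.8 in replicates 3 and 4, and the call was lost in 15 of 29 alternatives, among them leaving out that library. For the ribosomal, P450, fatty acid and histone medians the sign turned with the reference gene scaling, so no direction is given, and that of the intraflagellar transport genes ran from -0.05 to 0.17 over the alternatives. Of 16 early embryo genes 6 were tested and none passed, and *cwp-4*, the tested 1 of 7 male neuron genes, did not pass (0.73, adjusted p = 0.152).

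Within the pairs, the 37 genes that differed between replicates 4 and 3 included 35 that were higher in replicate 4. *ule-1*, *ule-2* and *ule-4*, named for expression at the uterine lumen, were among them (chosen after their values were seen). *ule-2* had 629, 493, 995 and 796 normalized counts in replicate 4 of the double strain, *hsf-1* OE, *ubql-1(tm1574)* and wildtype, against 140, 147, 91.9 and 154 in replicate 3 (log2 fold change 2.42, adjusted p = 0.000618). Replicates 1 and 2 had 559 to 1122, so replicate 3 alone was low. ZK813.2 was also higher in replicate 4 (adjusted p = 0.00325). The 5 genes higher in replicate 2 than in replicate 1 were *bgnt-1.2*, M05D6.10, *cnc-4*, *srh-70* and F41C3.2, with log2 fold changes from 3.79 to 1.2. No collagen of the list and no vitellogenin passed in either comparison within a pair.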

How the data were processed

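Poly-A RNA of 16 whole-animal samples was sequenced, and per the labels' processing notes the authors aligned reads with HISAT2 2.0.5 to WBcel235 and counted them with featureCounts 1.5.0-p3. The deposited counts, raw reads per gene without normalization, were taken from 3 tables of 8 libraries. The tables also hold the authors' own normalized values and comparisons, and none of these, 48 columns of values per library among them, entered the analysis. Whether counting used the strand is not given in the sources used here. The tables were joined into 23758 genes, and 17372 values (4.57%) of genes that a library's tables leave out were set to 0. Of the identifiers 23180 matched a locus tag of WBcel235, and 125 belong to rows the authors named outside the annotation.

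Counts were tested with the quasi-likelihood F test of edgeR 4.0.16 in R 4.3.3, two-sided, with TMM scaling, filterByExpr and Benjamini-Hochberg adjustment, in a model of genotype and pair of numbers, over all genes. Single genes were also tested by permuting the pair labels within genotypes on log2 of the normalized count plus 1. The members and the 35 gene lists were chosen with earlier results of these data known. The genes named are the 10 largest rises and falls past both thresholds with at least 100 normalized counts and 1 direction in all genotypes, up to 3 per list, all members of 5 short lists, and the genes that define the genotypes or scale the counts; others were chosen after their values were seen. The libraries were paired by the replicate numbers in their titles. As the members were chosen with earlier results known, the correlations between libraries are no independent support for this split. Alternatives were DESeq2 1.42.0, limma 3.58.1 with a random replicate block, RLE or reference gene scaling, other filters, the replicate block, and leaving out each library or number. The test was checked on simulated data, where it recovered 197 of 200 changed genes with 6 false calls. Those counts were drawn independently for each library, while same-numbered libraries deviated together here. The check therefore cannot show how many calls in these data are false. Depth was 18202151 to 30524762 counts per library, and the spread between libraries includes the counting error.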

Additional observations from a re-analysis of the deposited data

Results flagged for a closer look

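Of 140 sets of 4 libraries examined, 5 held a library far from the other 3 by Dixon's criterion, where chance alone gives about 1 in 20. Heat shock genes held 0.656% of the counts in double strain replicate 2, and the next library held 0.519%. *abu-8* had 121 normalized counts in *ubql-1(tm1574)* replicate 3, with 35 in the next library. F30H5.3 had 5.39 in wildtype replicate 3, with 1.83 next to it. *dhs-26* had 391 in wildtype replicate 1, with 75.5 next to it. *lipl-1* had 292 in double strain replicate 2, with 125 next to it.

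The moulting and apical matrix genes held a larger share of the counts in replicates 3 and 4 than in 1 and 2 of the double strain and *hsf-1* OE, and a smaller one in wildtype, with medians over the pairs of 0.058% and 0.0551%. The hedgehog-related and patched-related genes divided in the same way, with medians of 0.143% and 0.133%. The difference between genotypes in these shares was not tested.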

How the results depend on the processing

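Of 80 genes followed across the alternatives 79 kept their sign in each of them, and *col-19*, which passed no threshold (-0.07), ran from -0.11 to 0.04. With a mean of at least 50 counts required, 287 genes passed both thresholds, 265 of them higher and 22 lower, with 486 within *hsf-1* OE and 4 within the double strain. Without a fold threshold 5210 passed, and with an absolute log2 fold change over 2, 50. Leaving out each library or number in turn gave 371 to 631 genes, 331 to 582 higher and 35 to 71 lower, the lowest total without replicate 4. Without wildtype replicate 2 and *hsf-1* OE replicate 4, an alternative chosen after seeing the data, 34 were lower. Scaling to the 3 reference genes shifted the median of all genes by 0.113 and gave 31 lower genes, 8 between replicates 2 and 1, 0 within the double strain and 1 in the test between genotypes. With no filter on low counts there were 14 between replicates 2 and 1, and 1 between genotypes. RLE scaling gave 152 within wildtype and 27 within the double strain. The cause of these differences was not tested. With the replicate block of 4 number terms 599 genes passed, with the random replicate block 581 and with DESeq2 530.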

Other observations

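Some gene families outside the lists moved together, and they were picked after their values were seen, so no test is given. Of the 11 tested *abu* genes 10 were higher and 0 lower, where 3.27% and 0.328% of all genes tested were. Their median log2 fold change was 1.84. All 11 tested *nspb* genes and all 7 tested *idpc* genes were higher, with medians of 1.37 and 2.15. Of the 6 *pud* genes, clustered on chromosome V and partly near-identical in sequence, 5 were lower and 0 higher, with a median of -1.40. Members of such families may share reads. By chromosome, where 3.27% of all genes tested were higher, the share was 4.59% on X, 4.23% on V, 3.94% on II, 3.24% on IV, 1.90% on I and 1.57% on III.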
